A study of Mus musculus with 96 samples.

Results

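The 9 genes described here encode transcription factors that shape the epidermal lineage: Trp63, Grhl1, Grhl3, Gata3, Ovol1, Zfp750, Prdm1, Cebpa and Cebpb. They were chosen by symbol for their known role in skin, with earlier results of these data known but not by a threshold on measured values. All 9 were found among the 22497 genes of the series. Trp63 (p63) keeps basal keratinocytes in their lineage, and as these cells leave the basal layer Zfp750, the grainyhead-like factors Grhl1 and Grhl3, the zinc-finger repressor Ovol1, the C/EBP factors Cebpa and Cebpb and the repressor Prdm1 (Blimp1) take part in growth arrest and in building the cornified barrier. Gata3 serves barrier lipid synthesis and hair follicle fate in skin and is also a master regulator in T cells, some of which live in the epidermis. The circadian clock is a feedback loop in which BMAL1, the product of Arntl, activates its own repressors, and keratinocytes carry such a clock beside the central one in the brain.

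Messenger RNA of back-skin epidermis was sequenced in 96 libraries from female C57BL/6 mice aged 8 weeks, kept in constant darkness for 156 to 176 h. WT mice had intact Arntl (wt/wt) and both Cre drivers, K14Cre as wt/tg and Syt10-Cre as tg/wt. The other 3 genotypes were Arntl stopFL/stopFL, an allele blocked by a cassette that Cre removes. RERE mice carried both drivers (each tg/wt). EpiRE mice carried K14Cre alone (tg/wt, with Syt10-Cre wt/wt), and BRE mice carried Syt10-Cre alone (tg/wt, with K14Cre wt/wt). K14Cre acts where the keratin 14 promoter is active, in keratinocytes, and Syt10-Cre acts in the brain, so that by design Arntl was restored in the epidermis of RERE and EpiRE mice and not in that of BRE mice. Every genotype was sampled at 6 circadian times (CT) 4 h apart with 4 mice at each, which gives 24 libraries per genotype, and the labels call these biological replicates. The question was which clocks, epidermal, central or both, the level and the daily rhythm of epidermal transcripts depend on.

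Values are log2 RPKM, reads scaled to gene length and library size, so levels can be set side by side between genes. Libraries held 11.08 M to 19.89 M reads counted in genes (M for mega), with a median of 15.2 M and genotype means of 14.83 M to 15.44 M. Arntl spanned 2.51 to 4.97 log2 RPKM in the WT libraries, 2.67 to 4.85 for RERE, 3.64 to 4.90 for EpiRE and 3.68 to 4.37 for BRE, with means of 3.88 in both WT and BRE. The level of Arntl therefore does not check the labels, and whether the blocked allele yields part of these reads was not tested. Keratinocyte markers (Krt5, Krt14, Krt1, Krt10) summed to at least 1.44e+04 RPKM in every library, against at most 135 for T cell, 229 for Langerhans and myeloid, 267 for sebaceous gland, 9.44 for melanocyte, 9.22 for fibroblast and 0.309 for endothelium markers. The melanocyte markers Pmel (-0.47) and Dct (-0.66) were lower in BRE than in WT, and Pmel was higher in RERE (0.41) and EpiRE (0.38) than in BRE, all called by limma. Their part in the results on the 9 genes was not tested. Hair follicle markers, some of which keratinocytes outside follicles also express, summed to 3.56e+03 to 6.41e+03. No marker in the tables was at 0 reads in all libraries. In all, 4 libraries stood apart, deviating from their group by over 2 times the median deviation of all libraries, a limit chosen after seeing the data: replicate 1 of EpiRE at CT0, replicate 1 of EpiRE at CT8, replicate 4 of WT at CT8 and replicate 1 of RERE at CT0. They held 13 of the 72 values that were the lowest or highest of a member in a genotype, and results were computed with and without them. In bulk epidermis, fewer cells of a type and less RNA per cell cannot be told apart.

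The sequences before a RefSeq start of 4 members are shown because these are the members whose level differed between genotypes and because clock factors bind known motifs in such regions. RefSeq promoter entries (GRCm38.p6) were matched for 6 of the 9 members, with a pair of starts for Grhl1. Trp63, Ovol1 and Zfp750 had no entry. Each run is the 250 bases before the start, 5′ to 3′ on the gene's strand, and capitals mark CCAAT or its reverse complement. The regions are chr12:24572037-24572286 (plus strand, first start of Grhl1), chr4:135573633-135573882 (minus strand, Grhl3), chr2:167688665-167688914 (plus strand, Cebpb) and chr2:9878601-9878850 (minus strand, Gata3). The Gata3 run precedes the RefSeq start used here, which lies inside the longer span that the gene annotation gives.
Grhl1: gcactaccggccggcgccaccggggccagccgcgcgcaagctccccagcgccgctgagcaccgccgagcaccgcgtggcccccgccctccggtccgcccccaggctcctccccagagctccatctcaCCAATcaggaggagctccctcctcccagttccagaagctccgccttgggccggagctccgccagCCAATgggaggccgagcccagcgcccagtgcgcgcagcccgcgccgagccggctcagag
Grhl3: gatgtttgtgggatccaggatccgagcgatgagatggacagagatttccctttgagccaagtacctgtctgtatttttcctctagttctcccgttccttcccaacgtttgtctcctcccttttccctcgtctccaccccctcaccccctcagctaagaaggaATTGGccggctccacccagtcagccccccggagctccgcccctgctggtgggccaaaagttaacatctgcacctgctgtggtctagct
Cebpb: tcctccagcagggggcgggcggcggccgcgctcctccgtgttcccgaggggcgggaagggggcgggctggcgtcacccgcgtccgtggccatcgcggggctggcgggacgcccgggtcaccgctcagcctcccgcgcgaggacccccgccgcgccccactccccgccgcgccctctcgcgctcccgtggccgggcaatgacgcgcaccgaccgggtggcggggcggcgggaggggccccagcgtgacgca
Gata3: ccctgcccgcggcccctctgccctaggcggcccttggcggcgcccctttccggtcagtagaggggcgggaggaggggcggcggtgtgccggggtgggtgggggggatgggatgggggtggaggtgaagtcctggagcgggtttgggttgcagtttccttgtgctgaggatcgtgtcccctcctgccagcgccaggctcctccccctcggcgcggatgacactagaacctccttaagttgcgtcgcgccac
The E-box CACGTG that BMAL1 binds, the D-box TTATGTAA, the ROR element AGGTCA and the C/EBP motif TTGCGCAA were searched on both strands and occurred in none of the 7 windows of the 6 members. Of all 32851 promoters, 6.02% held the E-box in the same window, 0.819% the D-box, 14% the ROR element and 0.164% the C/EBP motif. CCAAT, a site of general promoter activity searched after the sequences were seen, occurred at 2 places before the first start of Grhl1 and at 1 place each in Grhl3 and Prdm1, and 33.8% of promoters held it. TATAAA, also added then, occurred in Cebpa alone and in 12.4% of promoters. The share of G and C was 81.6% before Cebpb, 75.6% before the first start of Grhl1, 70% before Gata3 and 56% before Grhl3, against a median of 52.4% over all entries. A match is a description of letters, and its absence from these windows says nothing of a factor's binding elsewhere.

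In WT epidermis the members spanned a wide range of levels. Gata3 was the most abundant at 7.69 ± 0.18 log2 RPKM (SD, n = 24), followed by Cebpa at 7.28 ± 0.12 and Trp63 at 6.80 ± 0.10. Grhl1 (6.57 ± 0.24), Zfp750 (6.55 ± 0.18) and Cebpb (6.45 ± 0.37) formed a middle group whose means differed by less than their SD. Grhl3 stood at 5.12 ± 0.20 and Ovol1 at 4.72 ± 0.41, neighbours whose libraries overlapped. Prdm1 was far below at -1.89 ± 0.62, with 5 to 62 reads per library over the 96 libraries, and lies under the minimum mean of 0 log2 RPKM that a gene needed to be tested. So 8 of the 9 members were tested. Gata3 and Cebpa led in every genotype. In BRE, Grhl1 at 6.84 ± 0.12 came before Trp63 at 6.75 ± 0.16, by less than their SD. Cebpb lay below Zfp750 in BRE (6.08 ± 0.24 and 6.55 ± 0.16), as it did by a smaller margin in WT.

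**Figure D1:**
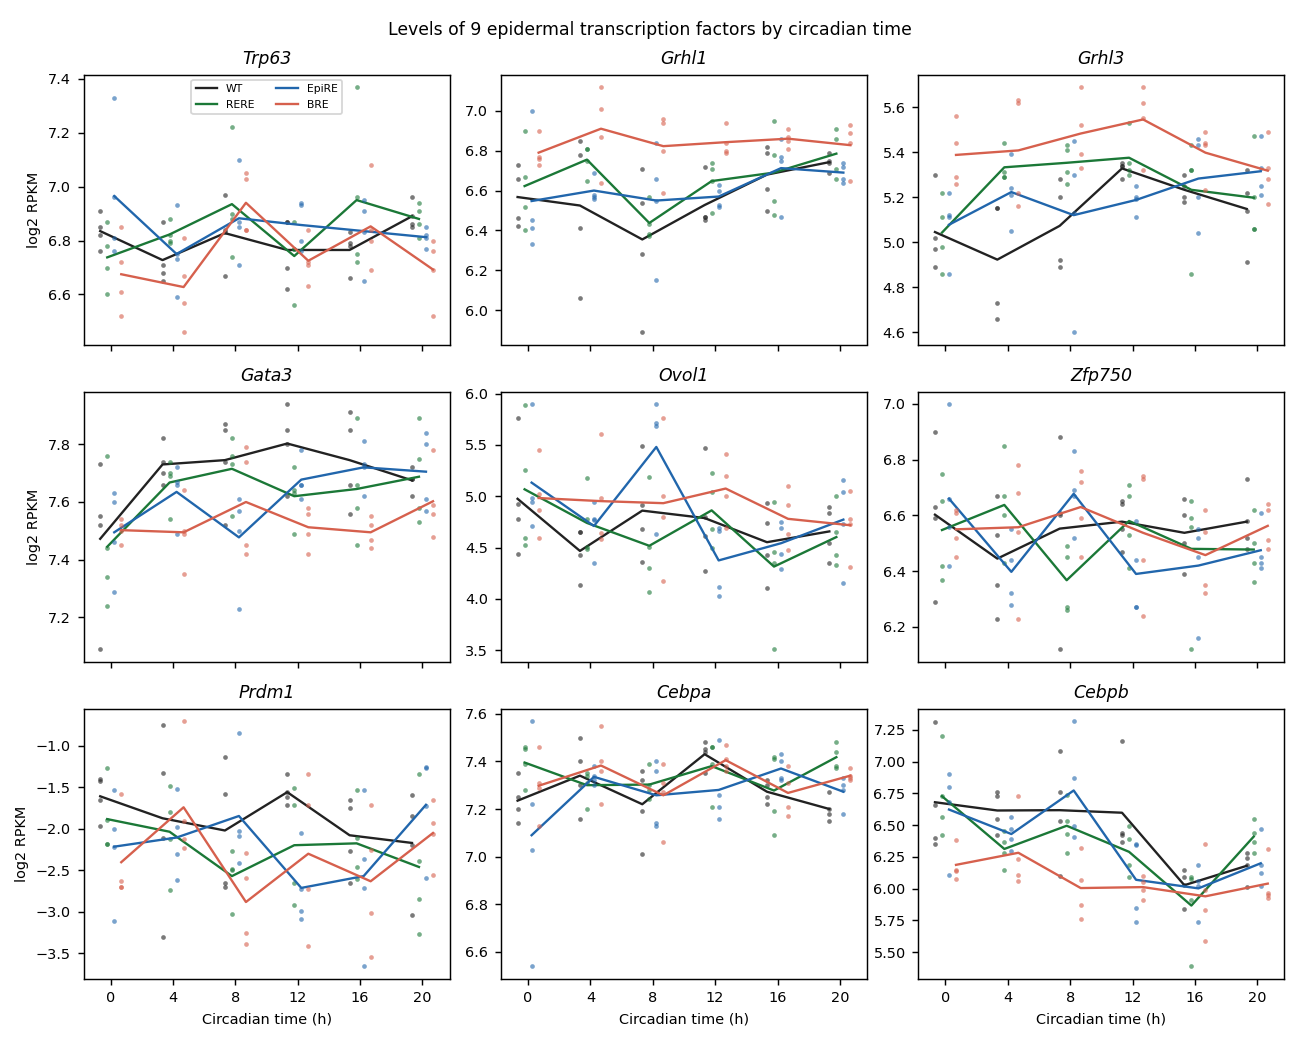
Level of each member in log2 RPKM (vertical axes, with a different span in each panel) by circadian time in hours, with 1 point per library, shifted sideways by genotype, and lines through the means of 4 libraries. The BRE line of Grhl1 and of Grhl3 lies above the WT line at all 6 times and that of Cebpb below it.

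Level was compared by the genotype term of a limma fit over 48 libraries with CT as a factor, with Benjamini-Hochberg adjustment over all genes tested and calls under 0.05. Between BRE and WT, 4 of the 8 members tested were called, where 36.9% of all genes were. Grhl1 and Grhl3 were higher in BRE, as 12.5% of genes were, and Cebpb and Gata3 were lower, as 24.4% were. With so few members the share called does not set them apart from genes at large. The median difference over the members was 0.02 (log2) against -0.05 over all genes. With each library scaled instead to the median of its gene ratios, 1785 genes were higher and 1991 lower in BRE, against 1382 and 2684 as deposited, and the same 4 members were called. They were also called under each of the other 12 alternatives, including the fit without the 4 libraries that stood apart.

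**Figure D2:**
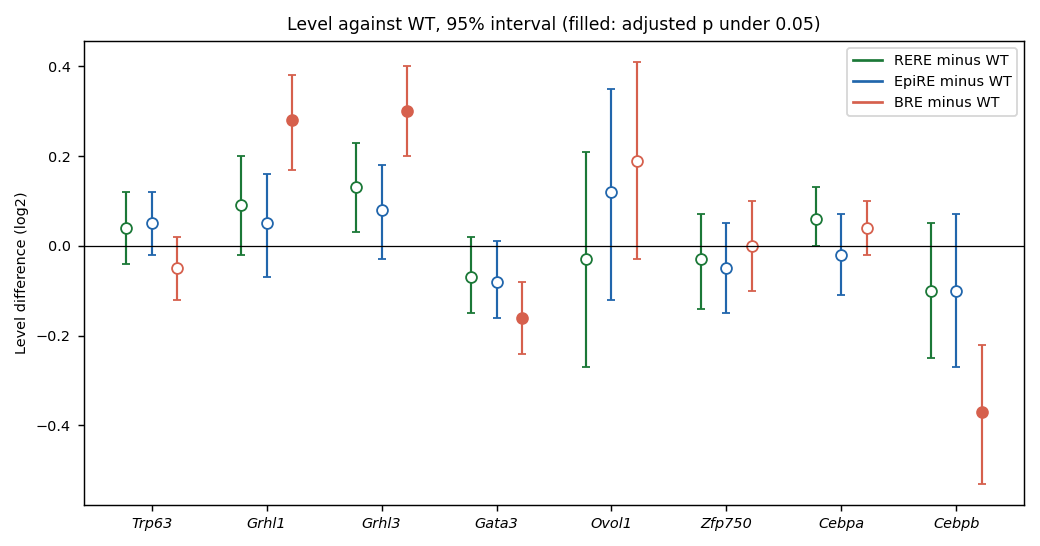
Difference in level from WT (vertical axis, log2) of the 8 members tested, for RERE, EpiRE and BRE, with 95% intervals from limma over 48 libraries. Filled points have an adjusted p under 0.05 and are the BRE points of Grhl1 (0.28), Grhl3 (0.30), Gata3 (-0.16) and Cebpb (-0.37).

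No member was called between RERE and WT, where 2.14% of genes were (0.787% higher and 1.35% lower in RERE). None was called between EpiRE and WT, where 2.23% of genes were (0.931% higher and 1.3% lower in EpiRE). At an unadjusted limma p under 0.05, Grhl3 alone passed between RERE and WT, and none passed between EpiRE and WT. limma-voom on recovered reads called 0 members in both comparisons as well. Between RERE and EpiRE no member was called by limma or limma-voom or had an unadjusted p under 0.05, and 0.00906% of genes (1 gene) were called. BRE was also set against the other genotypes with an Arntl stop allele, comparisons in which both groups carry that allele. BRE alone lacks K14Cre, which WT, RERE and EpiRE carry. In every comparison with BRE, absence of that driver and absence of restored epidermal Arntl therefore cannot be told apart. EpiRE and BRE also differ in Syt10-Cre and, by design, in Arntl of the brain. WT and BRE also differ in the Arntl allele itself. These differences cannot be told apart from the others either. RERE and BRE differed in 3 of 8 members, against 27.5% of genes (17.4% higher and 10.1% lower in RERE). EpiRE and BRE differed in 3 of 8, against 34% (22.9% higher and 11.1% lower in EpiRE). These were Grhl1, Grhl3 and Cebpb in both comparisons, which share the BRE libraries. Median-of-ratios scaling moved the share of called genes that were lower in BRE from 63.2% to 48.2% against RERE and from 67.4% to 50.4% against EpiRE, and the calls and directions of the 3 members were kept.

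The grainyhead-like factors are DNA-binding proteins of barrier formation and repair, Grhl1 acting on desmosomal genes and Grhl3 on transglutaminase and cornified-envelope genes. Grhl1 lies at chr12:24572283-24617391 (mm10, plus strand) and Grhl3 at chr4:135541888-135573630 (minus strand). Grhl1 ranged from 5.89 to 6.85 log2 RPKM in WT (median 6.63), from 6.37 to 6.95 in RERE (6.66), from 6.15 to 7.0 in EpiRE (6.61) and from 6.59 to 7.12 in BRE (6.85). The BRE libraries sat high in the WT range or above it: 23 of 24 exceeded the WT median and 12 exceeded every WT library. BRE exceeded WT by 0.28 ± 0.05 (log2, SE), a 1.21-fold higher level (limma adjusted p = 6.26e-05), and its mean was higher at 6 of 6 times, by 0.08 to 0.47. The separation was complete at CT12, where the WT libraries read 6.45, 6.47, 6.47 and 6.72 and the BRE libraries 6.79, 6.80, 6.84 and 6.94. Without the 4 libraries that stood apart, 1 of which held the lowest WT value, the difference was 0.25. Against BRE, RERE was lower by a difference of -0.19 ± 0.04 (limma adjusted p = 0.000466) and EpiRE by -0.23 ± 0.04 (limma adjusted p = 7.38e-05), in each case at 6 of 6 times. RERE and EpiRE differed from WT by 0.09 (95% interval -0.02 to 0.20) and 0.05 (-0.07 to 0.16).

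Grhl3 ranged from 4.66 to 5.35 in WT (median 5.19), from 4.86 to 5.53 in RERE (5.31), from 4.60 to 5.47 in EpiRE (5.21) and from 5.16 to 5.69 in BRE (5.43). In BRE 14 of 24 libraries lay above every WT library. BRE exceeded WT by 0.30 ± 0.05, 1.23-fold (limma adjusted p = 3.53e-06), with a higher mean at 6 of 6 times, by 0.16 to 0.48. Against BRE, RERE was lower by a difference of -0.17 ± 0.04 (limma adjusted p = 0.00421) and EpiRE by -0.22 ± 0.05 (limma adjusted p = 0.000918). The first of these was lost without the replicates numbered 2, at -0.12 (adjusted p = 0.0843). RERE stood between WT and BRE, 0.13 above WT (95% interval 0.03 to 0.23, limma adjusted p = 0.173). That comparison passed without replicates 2, at 0.20 (adjusted p = 0.0327). At CT4 the groups were apart, with RERE libraries at 5.29, 5.29, 5.31 and 5.44 and WT libraries at 4.66, 4.73, 5.15 and 5.15.

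Cebpb and Cebpa encode leucine-zipper factors that bind the same DNA motif and act in overlapping fashion in keratinocyte cell-cycle exit. Cebpb lies at chr2:167688915-167690418 (mm10, plus strand) and Cebpa at chr7:35119293-35121928 (plus strand). Only Cebpb was called between genotypes. It ranged from 5.84 to 7.31 in WT (median 6.41), from 5.39 to 7.20 in RERE (6.38), from 5.74 to 7.32 in EpiRE (6.35) and from 5.59 to 6.73 in BRE (6.06). In BRE 23 of 24 libraries fell below the WT median while 3 fell below every WT library, so the ranges overlapped widely. BRE differed from WT by -0.37 ± 0.08, which is 0.77 times the WT level (limma adjusted p = 0.000151), with a lower mean at 6 of 6 times. At CT12 the WT mean was 6.60 and the BRE mean 6.01, while at CT16 they were 6.02 and 5.94. The WT mean at CT12 includes 1 library at 7.16, the others reading 6.37 to 6.44. A rhythm difference of Cebpb between BRE and WT was not called (limma adjusted p = 0.409), so a dependence on time is not shown. Cebpb was higher than in BRE by 0.27 ± 0.07 in RERE (limma adjusted p = 0.00241) and by 0.27 ± 0.08 in EpiRE (limma adjusted p = 0.00548), the second of these lost without replicates 2 (adjusted p = 0.051). RERE and EpiRE both differed from WT by -0.10 (95% intervals -0.25 to 0.05 and -0.27 to 0.07).

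Cebpa was among the steadiest members. It ranged from 7.01 to 7.50 in WT (median 7.28), from 7.09 to 7.48 in RERE (7.38), from 6.54 to 7.57 in EpiRE (7.31) and from 7.06 to 7.55 in BRE (7.34). The EpiRE minimum came from replicate 1 at CT0, a library that stood apart and that also held the highest EpiRE values of Trp63 (7.33), Grhl1 (7.0) and Zfp750 (7.0). Its differences from WT were 0.06 in RERE, -0.02 in EpiRE and 0.04 in BRE, and the BRE interval of -0.02 to 0.10 holds no difference larger than 0.10 either way. Both C/EBP factors are also made by myeloid cells. Of 4 Langerhans and myeloid markers tested, Cd74 was lower in BRE than in WT by a difference of -0.34 (limma adjusted p = 0.0342). That call was lost under median-of-ratios scaling and without replicates 1, 3 or 4. The differences of Cd207 (-0.47), H2-Ab1 (-0.34) and Csf1r (-0.03) were not called (limma adjusted p = 0.0508, 0.0708 and 0.871). The 6 markers together spanned 51.3 to 229 RPKM in WT and 47.3 to 195 in BRE. The part of these cells in the Cebpb difference was not tested.

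Gata3 lies at chr2:9857078-9890034 (mm10, minus strand). It ranged from 7.09 to 7.94 in WT (median 7.71), from 7.24 to 7.89 in RERE (7.65), from 7.23 to 7.84 in EpiRE (7.63) and from 7.35 to 7.79 in BRE (7.51). BRE libraries kept within the WT range, yet 21 of 24 were below the WT median. BRE differed from WT by -0.16 ± 0.04, or 0.89 times (limma adjusted p = 0.00157), with a lower mean at 5 of 6 times. The exception was CT0, where the WT libraries read 7.09, 7.52, 7.55 and 7.73 and the BRE libraries 7.45, 7.50, 7.52 and 7.54. At 3 of the 6 times the BRE and WT libraries did not overlap. From WT, Gata3 differed by -0.07 in RERE (interval -0.15 to 0.02) and by -0.08 in EpiRE (interval -0.16 to 0.01). Neither difference was called, and these intervals do not show an unchanged level. RERE and EpiRE were above BRE by 0.10 ± 0.04 and 0.08 ± 0.04 (limma adjusted p = 0.0529 and 0.0692), and both comparisons passed without the 4 libraries that stood apart (0.11, adjusted p = 0.0195, and 0.10, adjusted p = 0.0235). Of 5 T cell markers tested, Cd3e (-0.36) and Cd3g (-0.33) were lower in BRE than in WT and Thy1 (0.64) was higher, all called by limma. The lower calls of Cd3e and Cd3g were absent when replicates 1, 3 or 4 were left out. Cd3e (0.58), Cd3g (0.49) and Cd3d (0.34) were higher in EpiRE than in BRE and Thy1 (-0.50) was lower, also called by limma. The summed T cell markers spanned 19.9 to 107 RPKM in WT and 45.8 to 114 in BRE, and their part in the Gata3 difference was not tested. Of 5 hair follicle markers tested, Cd34 (-0.96), Lhx2 (-0.94) and Krt15 (-0.17) were lower in BRE than in WT by limma and none was higher. Lhx2 (-0.82), Krt79 (-0.35) and Krt17 (-0.30) were lower in EpiRE than in WT by limma. Between BRE and WT, Krt79 (-0.06) and Krt17 (-0.18) were not called. The 6 markers on that list summed to 3.56e+03 to 6.05e+03 RPKM in WT and 3.65e+03 to 5.1e+03 in BRE, and their part in the Gata3 difference was not tested either. The annotation places 9230102O04Rik on the same strand as Gata3 and overlapping it, with other genes on the opposite strand. Since no source used here states the strand setting of the counting, reads of such overlapping genes may be mixed.

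Trp63 and Zfp750, a master factor of the epidermis and a differentiation factor known as its target, were called in no comparison of levels. Trp63 ranged from 6.62 to 6.97 in WT, 6.56 to 7.37 in RERE, 6.59 to 7.33 in EpiRE and 6.46 to 7.08 in BRE, with medians of 6.83, 6.82, 6.83 and 6.74. BRE differed from WT by -0.05 (95% interval -0.12 to 0.02). RERE and EpiRE were above BRE by 0.09 and 0.10 (limma adjusted p = 0.091 and 0.0665), the first of which passed without replicates 3 (0.13, adjusted p = 0.0382) and the second with the spread shared over 96 libraries (0.10, adjusted p = 0.0474). The count covers the whole gene, so the long (TA) and short (ΔN) forms of p63 were not told apart. Zfp750 ranged from 6.12 to 6.90 in WT, 6.12 to 6.85 in RERE, 6.16 to 7.0 in EpiRE and 6.23 to 6.78 in BRE, with medians of 6.58, 6.51, 6.49 and 6.57. Its BRE and WT means were both 6.55, and the 95% interval of the difference was -0.10 to 0.10. The same limit holds for Zfp750, which overlaps Tbcd on the opposite strand, and for Cebpb, which overlaps Tmem189.

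Ovol1 represses proliferation genes as keratinocytes begin to differentiate. It ranged from 4.11 to 5.76 in WT (median 4.67), from 3.51 to 5.89 in RERE (4.56), from 4.03 to 5.90 in EpiRE (4.74) and from 4.17 to 5.76 in BRE (4.89), so each genotype covered over 1.5 log2 units. The difference of BRE from WT was 0.19 (95% interval -0.03 to 0.41, limma adjusted p = 0.175), with a higher BRE mean at 6 of 6 times. It was called without replicates 3, at 0.28 (adjusted p = 0.0433). At CT8 the EpiRE libraries of Ovol1 read 4.63, 5.68, 5.71 and 5.90 and the WT libraries 4.36, 4.68, 4.91 and 5.49. The value of 5.90 came from replicate 1, a library that stood apart. Prdm1, which marks sebaceous progenitors and late differentiation, was near the detection limit in every genotype. Median reads per library came to 26 for WT, 19 for RERE and EpiRE and 17.5 for BRE. When genes of all levels were tested, Prdm1 differed between BRE and WT by -0.45 ± 0.19 (limma adjusted p = 0.0583).

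Other genes of the same programme were read from lists, also chosen with earlier results of these data known. Between BRE and WT, 36.9% of all genes were called, 12.5% higher and 24.4% lower in BRE. Of 23 further epidermal transcription factors tested, 16 were called, 3 higher and 13 lower, with a median difference of -0.14 against -0.05 over all genes. Elf3, an ETS factor of epithelial differentiation, differed by -0.95 ± 0.19, the AP-2 factor Tfap2c by -0.38 ± 0.04, the homeodomain protein Hopx by -0.32 ± 0.06 and Ovol2, the paralogue of Ovol1, by -0.32 ± 0.08. The count fell to 10 without replicates 1 and to 9 without replicates 2. Differentiation and barrier genes went the other way: 14 of 18 tested were higher in BRE and none lower, with a median of 0.38, led by Ivl (0.67 ± 0.13), Dsc1 (0.60 ± 0.14), Cdsn (0.58 ± 0.13) and Abca12 (0.51 ± 0.10). These encode involucrin, desmocollin 1, corneodesmosin and a lipid transporter. Krt1 (0.36) and Krt10 (0.35), keratin genes that mark suprabasal cells, were among the 14 that were higher in BRE. The part of a larger suprabasal share in the Grhl1 and Grhl3 differences was not tested. Of 11 p63 targets and basal genes tested, 3 were called. With so few genes this share does not set them apart from the 36.9% of all genes. Itga3 (0.19 ± 0.05) and Perp (0.14 ± 0.03) were higher and Itga6 (-0.16 ± 0.04) was lower. Against WT, RERE had 4 of 18 differentiation genes called, all higher, where 2.14% of all genes were called and 0.787% were higher. EpiRE had 2 of 18 called, both higher, where 2.23% of all genes were called and 0.931% were higher. Tgm3 (0.88 ± 0.21 in RERE and 1.09 ± 0.18 in EpiRE) and Krt1 (0.42 in both) were among them. No further transcription factor and no basal gene was called in either comparison by limma.

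Compared with RERE, BRE was lower in 7 of 23 further transcription factors and higher in none, a share near the 27.5% of all genes called, with Elf3 0.68, Maf 0.40, Tfap2c 0.29 and Cebpd 0.26 higher in RERE. Compared with EpiRE, where 34% of all genes were called, BRE was lower in 9 of 22 and higher in 1, with Maf 0.42, Tfap2c 0.36 and Ehf 0.33 higher in EpiRE and Dlx3 lower by a difference of -0.26. Differentiation genes were higher in BRE than in RERE for 10 of 18 and lower for 1, Tgm3. The same counts were 12 and 1 against EpiRE. In the RERE comparison the count of transcription factors fell to 3 without replicates 2 or 4 and to 4 without replicates 3, and that of differentiation genes to 7 without replicates 1 and to 5 without replicates 2. In the EpiRE comparison the count of transcription factors fell to 5 without replicates 4. Cebpd, a further C/EBP gene, was called in the RERE comparison in the same direction as Cebpb.

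Rhythm was tested within each genotype by limma's F test of a 24 h cosine and sine, and amplitude is the height of the fitted curve above its mean. In WT, 2 of 8 members were called rhythmic, where 33.1% of genes were. They were Cebpb and Grhl3, and the median amplitude of the members was 0.09 against 0.12 over all genes. In RERE 0 of 8 were called, where 19.4% of genes were, though Cebpb and Grhl3 had unadjusted p under 0.05 and limma-voom called Cebpb (adjusted p = 0.0494). In EpiRE 0 of 8 were called by limma and by limma-voom, and none of 11061 genes was (0%), although 1397 had an unadjusted p under 0.05. Among members, Cebpb alone had an unadjusted p under 0.05. In BRE 0 of 8 were called by both tools, 1.14% of genes were, and no member had an unadjusted p under 0.05.

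**Figure D3:**
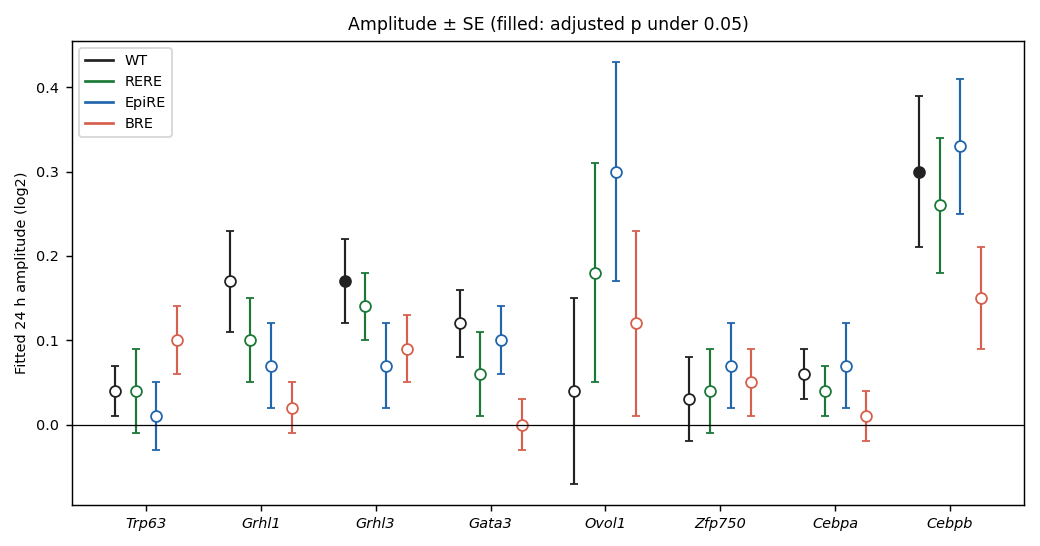
Fitted 24 h amplitude (vertical axis, log2) of the 8 members tested in each genotype, with the SE from limma over 24 libraries. Filled points have an adjusted p under 0.05 and are Cebpb (0.30) and Grhl3 (0.17) in WT, and a fitted amplitude lies above 0 for a flat gene too.

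Cebpb in WT was high from CT0 to CT12 and low at CT16 and CT20. The libraries read 6.35, 6.40, 6.66 and 7.31 at CT0, 6.42, 6.55, 6.73 and 6.76 at CT4, 6.10, 6.53, 6.76 and 7.08 at CT8 and 6.37, 6.42, 6.44 and 7.16 at CT12. They read 5.84, 6.03, 6.09 and 6.15 at CT16 and 6.01, 6.19, 6.24 and 6.28 at CT20. All 8 of the late libraries were thus below every earlier one except 1 at CT8. The amplitude was 0.30 ± 0.09 with a peak at CT 5.35 ± 1.08 h (limma adjusted p = 0.0258), a 1.52-fold change from trough to peak. The call was lost without replicates 1, 2 or 4, without the filter on low genes and with CT as a factor (adjusted p up to 0.154). Amplitudes elsewhere were 0.26 ± 0.08 in RERE (limma adjusted p = 0.0566), 0.33 ± 0.08 in EpiRE (0.299) and 0.15 ± 0.06 in BRE (0.278). In RERE, Cebpb was called by limma with CT as a factor (adjusted p = 0.0107) and with the shared spread (0.044), and by limma-voom (0.0494). The fitted EpiRE amplitude was the largest of the 4 genotypes and missed the threshold in a genotype where no gene passed it. There 199 genes passed with CT as a factor and 94 with the spread shared over 96 libraries, with no member among them. In the authors' deposited tables, JTK_CYCLE gave Cebpb q = 0.0225 in WT with a peak at 6 h and BIOCYCLE gave q = 0.252, and no other member in any genotype had a q under 0.05 from either program.

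Grhl3 in WT was low at CT4 and high at CT12. Its libraries read 4.66, 4.73, 5.15 and 5.15 at CT4 and 5.28, 5.34, 5.34 and 5.35 at CT12, with no overlap. The amplitude was 0.17 ± 0.05 with a peak at CT 14.7 ± 1.01 h (limma adjusted p = 0.0173), a 1.27-fold change. It was lost without replicates 1 or 3 and with CT as a factor (adjusted p up to 0.0915). In RERE the amplitude was 0.14 ± 0.04 with a peak at CT 9.91 ± 1.2 h (limma adjusted p = 0.0643). That rhythm was called with the replicate number as a block (adjusted p = 0.0345) and without replicates 1 (adjusted p = 0.0443). Amplitudes were 0.07 in EpiRE and 0.09 in BRE. Grhl1 and Gata3 in WT fell just short, with amplitudes of 0.17 ± 0.06 and 0.12 ± 0.04 and peaks at CT 19.2 and CT 11.6 (limma adjusted p = 0.085 and 0.0841). Gata3 was called under median-of-ratios scaling and without replicates 3, and Grhl1 without replicates 1. In BRE the fitted amplitudes of Grhl1 and Gata3 were 0.02 and 0.00. Trp63, Zfp750, Cebpa and Ovol1 had limma adjusted p of 0.328 or more in WT.

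Whether a rhythm differed between genotypes was tested by the interaction of genotype with the cosine and sine. No member was called by limma or limma-voom in any of 5 such comparisons. The shares of genes called were 0% for RERE and WT, 1.57% for EpiRE and WT, 5.69% for BRE and WT, 1.05% for RERE and EpiRE and 4.19% for RERE and BRE. An unadjusted limma p under 0.05 was reached by Grhl3 between RERE and WT, where its adjusted p was 0.617. Between BRE and WT it was reached by Grhl3 and Grhl1, with limma adjusted p of 0.216 and 0.25. So the loss of the Cebpb and Grhl3 calls outside WT was not shown to be a difference between genotypes. The lists were read in the same way, against the 33.1% of all genes called in WT. There 10 of 23 further transcription factors were called, among them Ehf (amplitude 0.46 ± 0.12, peak CT 1.44), Klf5 (0.30 ± 0.03, CT 8.11) and Klf4 (0.21 ± 0.07, CT 5.78), and that count fell to 6 without replicates 2 or with CT as a factor and to 2 without replicates 4. The rhythms of Klf5 and Tfap2c were among those called different between BRE and WT (limma adjusted p = 0.000192 and 0.0126). Of basal genes 5 of 11 were called in WT (3 without replicates 4), led by Dst (0.51 ± 0.07, CT 10.6), and of differentiation genes 7 of 18, led by Tgm3 (0.89 ± 0.18, CT 7.05) and Aloxe3 (0.55 ± 0.07, CT 12). The last count was 4 without replicates 3 and 3 without replicates 4 or with CT as a factor.

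Members differed in how much mice of the same genotype and time varied. The within-group SD was 0.43 for Ovol1, larger than that of 94.1% of 11028 expressed genes, and 0.27 for Cebpb, larger than that of 81.1%. For the others tested it ran from 0.13 (Cebpa) to 0.18 (Grhl1), near the median of 0.16. Prdm1, with few reads, had 0.64. Group means of Ovol1 spanned 1.16 log2 units and those of Cebpb 0.90, against 0.31 for Zfp750 and 0.34 for Trp63 and Cebpa. EpiRE at CT8 was the highest group of Ovol1, Cebpb and Zfp750. EpiRE at CT0 was the highest of Trp63 and the lowest of Cebpa. Each of these groups holds a library that stood apart.

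Members also deviated from their group means together. Over 96 libraries Ovol1 was correlated with Cebpb (Pearson's r = 0.66) and with Zfp750 (0.59), and inversely with Gata3 (-0.74). Gata3 was also inverse to Cebpb (-0.56) and Zfp750 (-0.51), while Grhl1 went with Grhl3 (0.61) and Zfp750 (0.56). Trp63 and Cebpa were inverse (-0.55). These are descriptions across libraries that share 1 scaling within each library, and without the 4 libraries that stood apart the values were 0.69, 0.57, -0.73, -0.61, -0.47, 0.59, 0.50 and -0.49 in the same order. Quantities that moved with them were read in the same way. Grhl1 and Grhl3 went with the mean of 18 differentiation genes (0.79 and 0.71) and inversely with that of 12 basal genes (-0.50 and -0.48). Zfp750 (0.44), Cebpa (0.42) and Prdm1 (0.42) also went with the differentiation mean, less closely. Ovol1, Cebpb and Zfp750 went with the mean of 9 immediate early genes (0.56, 0.54 and 0.44), which respond within minutes to stimuli, and Gata3 went inversely with it (-0.45). These genes (Fos, Fosb, Jun, Junb, Egr1, Atf3, Ier2, Ier3 and Dusp1) were picked after values were seen. Their mean was 9.34 ± 0.44 log2 RPKM in WT and 9.15 ± 0.41 in BRE (SD, n = 24), and its part in the member results was not tested. Correlations with log2 total reads ran from -0.05 to 0.21.

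**Figure D4:**
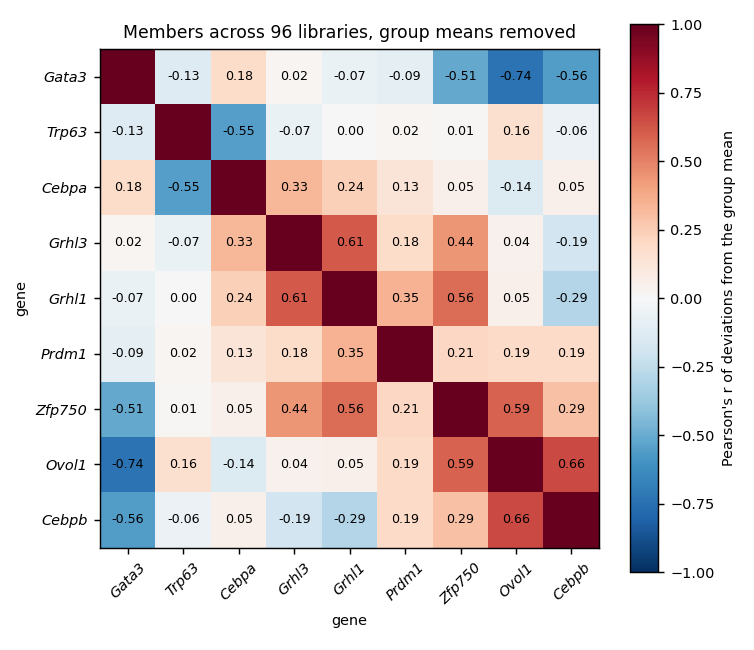
Pearson's r between members over 96 libraries after the mean of each group of 4 was removed, on a colour scale from -1 to 1. Gata3 is inverse to Ovol1 (-0.74), Cebpb (-0.56) and Zfp750 (-0.51), and Grhl1 and Grhl3 are correlated (0.61).

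Over the 24 group means, the genes whose pattern was most like each member were found among all expressed genes. Grhl1 was most like Wdr47 (r = 0.946) and Asah2 (0.943), a ceramidase gene, and these also followed it within groups (0.71 and 0.86 over 96 libraries). Grhl3 was most like Gldc (0.919) and Zmat3 (0.902). Cebpb was most like Slco4a1 (0.902) and Erf (0.901). Gata3 was most like Asap3 (0.844) and Oas1b (0.837), and Ovol1 was most like Rnd3 (0.841) and Nectin2 (0.836). The likeness was weaker for Cebpa (Klk8, 0.820, and Grb7, 0.797), Prdm1 (Por, 0.770, and Sprr1a, 0.757) and Zfp750 (the early gene Egr3, 0.726, and Ovol1, 0.719). Trp63 had the weakest matches (Mir1192, 0.693, and Zfp148, 0.670). These are the highest of many values over points that share genotypes and times, and are given as descriptions.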

How the data were processed

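The labels describe 96 polyadenylated RNA libraries from dispase-separated epidermis, made with a stranded kit and molecular identifiers. The submitters' processing notes name mm10, edgeR without a version, featureCounts 1.6.0, HISAT2 2.2.1, Trimmomatic 0.36 and SAMtools 1.3.1. No source used here states how the identifiers or the strand were used in counting. The authors deposited 8 tables of 22497 genes, 4 from BIOCYCLE and 4 from JTK_CYCLE. The deposited log2 RPKM values of the BIOCYCLE tables, whose headers name genotype, CT and replicate, were analysed. The authors' deposited p-values and q-values and their deposited peak times, other values in hours, are quoted for the members. A further 96 columns of values per library in the JTK_CYCLE tables carry codes that match no label and were not used. For EpiRE and BRE those codes do not follow the order of time, so the CT of these genotypes rests on the BIOCYCLE headers.

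Steps between low values gave back whole reads, less a prior of 0.25 reads, in 99.87% of genes (22468), where 99.9996% of values came within 0.1 of an integer. They gave library totals and fed limma-voom as an alternative. Tests used limma 3.58.1 in R 4.3.3 with a mean trend, on genes whose mean over the libraries compared reached 0 log2 RPKM (8 of the 9 members), as two-sided tests or F tests, with Benjamini-Hochberg adjustment over all genes tested. The tests were checked on simulated data. Members and gene lists were chosen with earlier results of these data known, and of each list at most the 4 called genes with the largest effect are named, except for a result that is not reported here. For likeness, the 2 genes with the highest r were named. Promoters were searched over the 250 bases upstream, leaving out the 50 bases past the start. Alternatives covered filters, pseudocount, scaling, replicate block, leave-one-out, CT as a factor and a shared spread.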

Additional observations from a re-analysis of the deposited data

Results flagged for a closer look

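In 7 of 216 groups of 4 libraries, 1 library of a member lay far from the other 3 by Dixon's test at its 95% critical value, where chance alone gives about 1 in 20. Cebpb was high in replicate 3 of WT at CT12 (7.16 log2 RPKM, the others 6.37 to 6.44) and in replicate 2 of BRE at CT20 (6.31, the others 5.93 to 5.97). Grhl1 was high in replicate 4 of WT at CT12 (6.72, the others 6.45 to 6.47) and in replicate 4 of EpiRE at CT4 (6.69, the others 6.56 to 6.58). Grhl3 was low in replicate 1 of WT at CT12 (5.28, the others 5.34 to 5.35) and high in replicate 4 of RERE at CT4 (5.44, the others 5.29 to 5.31). Prdm1 was high in replicate 4 of BRE at CT0 (-1.58, the others -2.71 to -2.63). None of these libraries was among the 4 that stood apart over all genes.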

How the results depend on the processing

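Level calls between BRE and WT were kept for the same 4 members in all 13 alternatives. No level difference of a member that was called with all libraries changed sign, while small differences that were not called could. The count of members called rhythmic in WT (2) was 1 without the filter on low genes, 0 with CT as a factor and 4 with the spread shared over 96 libraries. Leaving out each replicate in turn gave 1 to 2. The count in RERE (0) was 1 with limma-voom, 1 with CT as a factor, 1 with the shared spread and 0 to 1 without single replicates. With single replicates left out, 0 to 1 members were called between RERE and WT and 2 to 5 between RERE and BRE (3 with all libraries). The cause was not tested. Without the low filter 8585 genes were called between BRE and WT (5133 higher and 3452 lower in BRE), against 4066 (1382 and 2684). Between RERE and WT 4310 genes were called against 236. In the deposited values a gene without reads differs between genotypes by a fixed amount. Calls among genes with few reads are therefore not shown to be differences in expression, and the part of this offset was not tested.

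With the replicate number as a block, 1 member was called rhythmic in RERE (Grhl3), and no other member count changed. Same-numbered libraries of different groups did not deviate together (mean r of 0.00 over 1104 pairs, and over 3312 differently numbered pairs), so the numbers are not shown to pair the mice.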
